A study of Homo sapiens with 11 samples.

Results

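Human embryonic stem cells of the line H1, kept in the medium t2iGo and given a short hairpin RNA (shRNA) named uCCNE1, were compared with the same kind of culture given a control shRNA (Ctrl). Both were collected on day 5 of a lentiviral infection, and each is 1 library, so the comparison uses 2 of the 11 libraries of the series. Of the 23287 genes in the table, 12116 entered it because they averaged at least 1 RPKM over the 9 libraries with an shRNA. RPKM is a read count divided by transcript length and by library size.

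The shRNA libraries form a grid of 3 hairpins (uCCNE1, pCCNE1 and Ctrl) by 3 cultures (t2iGo H1, 5iLA H7 and primed H1), and the title of the series calls pCCNE1 a primate-specific splice form of CCNE1. The labels do not spell out the u of uCCNE1, and they give neither the hairpin sequences nor any selection of infected cells. The table gives 1 value per gene, so the form that uCCNE1 shRNA acts on was not measured on its own. The t2iGo and primed cultures share the line H1, while 5iLA differs from both in line and in medium.

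CCNE1 encodes cyclin E1, which activates the kinase CDK2 at the start of S phase. One target of cyclin E and CDK2 is NPAT, a coactivator of the replication-dependent histone genes, whose mRNAs are made in S phase and end in a stem-loop in place of a poly(A) tail. NODAL is a secreted signal of the TGF-beta family that acts through activin receptors, the co-receptor TDGF1 and the factors SMAD2, SMAD3 and FOXH1. It raises its own antagonists LEFTY1 and LEFTY2 and helps to maintain NANOG in primed human pluripotent cells.

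The depth, estimated from the size of the steps between low RPKM values, was 9.70 M reads for uCCNE1, 6.39 M for pCCNE1 and 14.1 M for Ctrl in t2iGo, and 11.47 to 23.7 M in the other 6 shRNA libraries. For a 2 kb transcript, each read was worth 0.0516 RPKM with uCCNE1 and 0.0355 RPKM with Ctrl. Short RNAs held 16.7% of summed RPKM with uCCNE1 and 13.1% with Ctrl. The primed libraries stand apart as a whole, with 0.218 to 0.521% of RPKM in short RNAs and summed RPKM of 341088 to 357685, beside 190718 with uCCNE1 and 185375 with Ctrl in t2iGo, so levels set beside the primed control are less comparable. Nothing in the labels gives a replicate, so no difference below has a test or a replicate check. Intervals are 95% intervals of the ratio of uCCNE1 to Ctrl and cover counting error only.

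The label names the t2iGo cells naive, and the markers of that state were close to absent. All 8 naive markers examined lay below 1 RPKM in both libraries, and their summed level was 2.38 RPKM with uCCNE1 and 3.07 RPKM with Ctrl. The same sum was 833 RPKM in the 5iLA control and 4.61 RPKM in the primed control. DNMT3L, a cofactor of DNA methylation in naive cells, stood at 0.455 RPKM with uCCNE1 and 0.649 RPKM with Ctrl, beside 96.0 RPKM in the 5iLA control. The primed markers ZIC2 and SFRP2 were present at 19.4 and 13.8 RPKM with uCCNE1 and at 21.97 and 17.2 RPKM with Ctrl, below the 92.3 and 185 RPKM of the primed control. The cells are therefore called t2iGo H1 here. On the log2(RPKM + 1) scale, no member of the naive list (20 of 25 genes measured above the filter) differed by 1 or more. Nor did any member of the primed list (19 of 20). A gene below 1 RPKM in both libraries cannot differ by 1 on this scale, and all 8 naive markers were such genes. For genes at that level, the result for the naive list therefore does not show that they were unchanged.

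**Figure D1:**
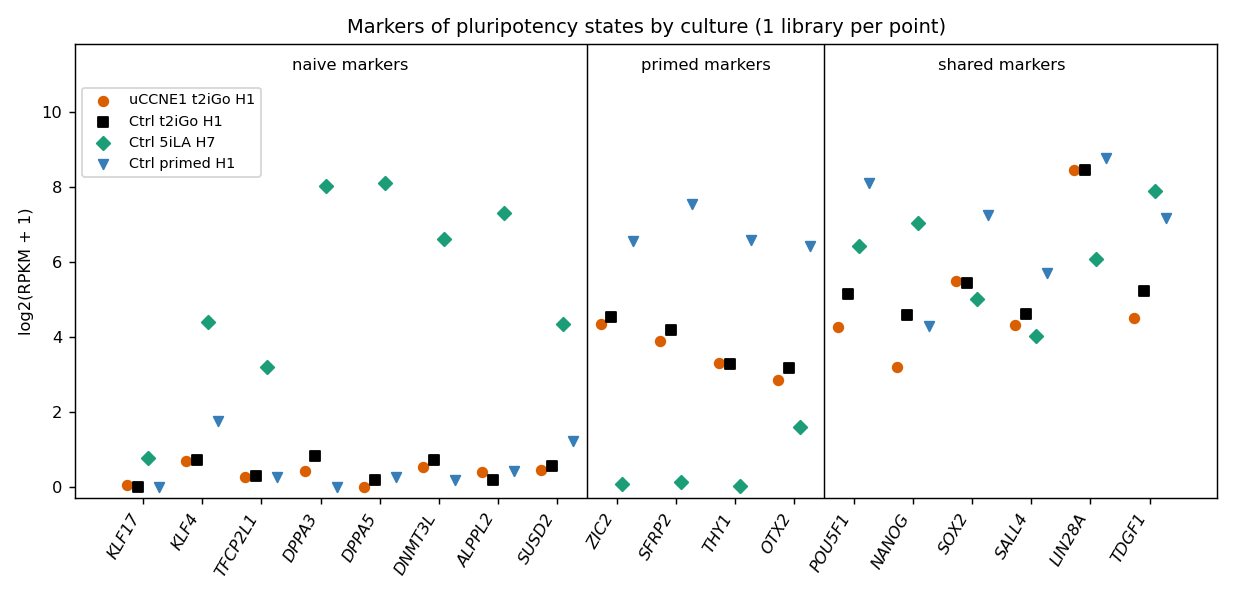
Level of each marker gene, as log2(RPKM + 1), in uCCNE1 t2iGo H1 and in the control libraries of the 3 cultures, with 1 library per point. The naive markers lie near 0 in both t2iGo libraries and high in 5iLA H7, where they sum to 833 RPKM.

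Markers of other cell types were also read, and the cells that made this RNA were not identified. The 9 liver-type endoderm markers summed to 49.96 RPKM with uCCNE1 and 27.5 RPKM with Ctrl, beside 3.82 RPKM in the primed control. None of them was at 0, and 3 markers of the 9 (AFP, TTR and APOB) were higher by at least 1. The 6 others summed to 20.7 RPKM with uCCNE1 and 19.4 RPKM with Ctrl, most of it APOA1 (16.5 and 12.6 RPKM). On the log2(RPKM + 1) scale APOA1 and ALB were higher (0.37 and 0.24). SOX17, FOXA2, GATA4 and GATA6 were lower (-0.37, -0.29, -0.56 and -0.48). The 8 fibroblast markers summed to 139 RPKM with uCCNE1 and 78.7 RPKM with Ctrl, beside 149 RPKM in the primed control, where most of the sum came from THY1. The 5 mesoderm markers summed to 21.7 RPKM with uCCNE1 and 29.5 RPKM with Ctrl, with TBX6 and MESP1 listed at 0 with uCCNE1. The 5 trophoblast markers summed to 1.84 RPKM with uCCNE1 and 0.344 RPKM with Ctrl, and KRT7, CGA and ELF5 were listed at 0 with Ctrl. In bulk RNA, more cells of a type and more RNA per cell cannot be told apart.

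The t2iGo libraries were close to each other for most genes. The difference of uCCNE1 minus Ctrl on the log2(RPKM + 1) scale, which understates changes of low genes, had a median of 0.000576 over all genes and ran from -0.45 at the 5th to 0.37 at the 95th percentile. A gene is called higher or lower here when its difference is at least 1 in size. By that rule 46 genes (0.38%) were higher and 77 genes (0.636%) were lower. The genes nearest to the bound were LRP2 (1.002, inside) and FABP6 (0.993, outside) among those higher, and HIST1H4D (-1.006, inside) and HIST1H2AD (-0.9993, outside) among those lower. Of the 46 higher genes 21 were short RNAs, and of the 77 lower genes 34 were histone genes and 14 were short RNAs. The other 25 higher and 29 lower genes hold the secreted endoderm proteins and the NODAL pathway genes described below. The counting interval left out 1 for 46 of the 46 higher genes and for 74 of the 74 lower genes that have a transcript length. These genes were picked by the difference between the same values, so that outcome was nearly fixed in advance and does not support the calls.

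**Figure D2:**
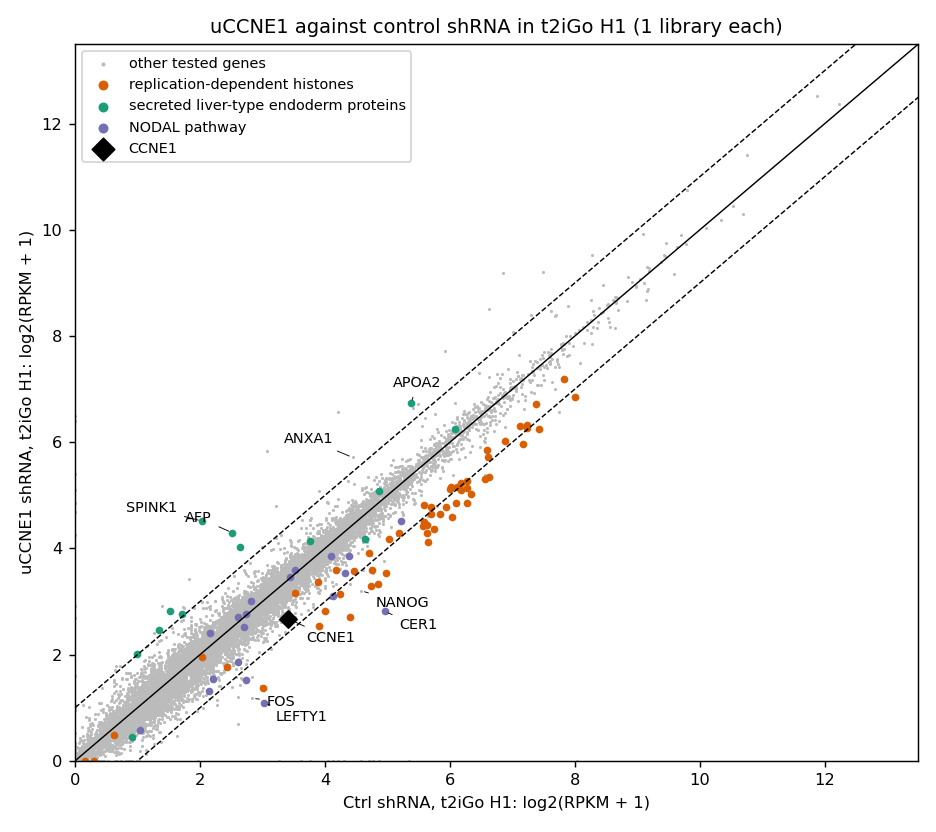
Level of each of 12116 genes with uCCNE1 shRNA (vertical) against control shRNA (horizontal) in t2iGo H1, both as log2(RPKM + 1), with 1 library per axis; the solid line marks equal levels and the dashed lines a difference of 1. Histone genes and most NODAL pathway genes lie below the solid line, and SPINK1, AFP and APOA2 lie above the upper dashed line.

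CCNE1 (NM_001238, chromosome 19), the gene the hairpin is named for, was lower. It stood at 5.38 RPKM with uCCNE1, 5.25 RPKM with pCCNE1 and 9.65 RPKM with Ctrl, from an estimated 107 and 277 reads with uCCNE1 and Ctrl. The ratio to Ctrl was 0.558 (0.444 to 0.703) and the difference was -0.74, which does not reach the call. Only 1.28% of the genes compared lay at or below that difference. The differences for uCCNE1 were -1.27 in 5iLA H7 and -0.74 in primed H1, each against the control of its own culture. CCNE2, which encodes the other E-type cyclin, stood at 3.37 RPKM with uCCNE1, 4.89 RPKM with pCCNE1 and 3.12 RPKM with Ctrl.

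No gene of the cell cycle lists reached the call in either direction. Of all genes 0.38% were higher and 0.636% lower, a share at which lists of this size hold few or no calls. Of 21 cyclins, CDKs and inhibitors of G1 and S phase, 0 were higher and 0 lower, with a median of 0.06. CDK2, the partner of cyclin E, stood at 13.0 RPKM with uCCNE1 and 12.1 RPKM with Ctrl. CDKN1A, an inhibitor of CDK2, stood at 1.998 RPKM with uCCNE1 and 1.19 RPKM with Ctrl, at a ratio of 1.67 (1.03 to 2.64). None of 38 DNA replication genes was called, with a median of 0.03, and PCNA, the sliding clamp of DNA polymerase, stood at 71.5 RPKM with uCCNE1 and 63.4 RPKM with Ctrl. None of 24 genes of G2 and mitosis was called, with a median of 0.03, and MKI67, a marker of cycling cells, stood at 15.5 RPKM with uCCNE1 and 12.7 RPKM with Ctrl. The S phase and mitosis lists thus lay close to control, unlike the histone genes.

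Replication-dependent histone genes, most of them on chromosomes 6 and 1, were the largest group among the lower genes. The table holds 71 histone cluster genes by symbol, of which 63 passed the filter. Not all of these are in the shorter list of replication-dependent histones, which holds 56 of the 63. All 63 had a difference below 0, with a median of -1.06, and 34 reached the call, where 0.636% of all genes were called lower. For HIST1H1A and HIST1H3C that sign rests on about 1 read with Ctrl, at 0.110 and 0.240 RPKM, and 0 RPKM with uCCNE1. Their summed level was 1865 RPKM with uCCNE1, 1494 RPKM with pCCNE1 and 3854 RPKM with Ctrl, so the uCCNE1 library held 48.4% of the control level. Many of these genes are near-identical copies of each other, and the labels do not say how reads that fit several copies were assigned. Single values are therefore uncertain, and HIST2H4A and HIST2H4B have nearly the same values in every library.

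By class medians, H2B, H3 and H4 genes were lower by more than linker histone H1 genes, and H2A genes lay between. The median was -1.19 over 17 H2B genes, of which 12 were called lower, and -0.93 over 14 H2A genes, of which 5 were. It was -1.12 over 12 H3 genes (7 lower) and -1.12 over 14 H4 genes (10 lower). Over the 6 linker histone H1 genes it was -0.75, and 0 were called. That median is drawn towards 0 by HIST1H1A (0 RPKM with uCCNE1, 0.110 RPKM with Ctrl) and HIST1H1T (0.717 and 1.21 RPKM), both near the floor. The other H1 genes ran from -0.65 (HIST1H1D) to -0.95 (HIST1H1E), so H1 and H2A are not clearly apart. Among linker histones HIST1H1C stood at 79.4 RPKM with uCCNE1, 67.3 RPKM with pCCNE1 and 149.9 RPKM with Ctrl, at a ratio to Ctrl of 0.530 (0.477 to 0.587).

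Promoters are shown for the H2B and the H4 gene with the largest fall in their class on the log2(RPKM + 1) scale, to set their sequence beside the size of the fall. They are the 250 bases before the start of the RefSeq transcript, in build GRCh38.p14, written on the strand of the gene. HIST1H2BJ lies at chr6:27132796-27133045 on the minus strand and HIST1H4L at chr6:27873535-27873784 on the minus strand. Capitals mark the octamer ATTTGCAT, the site bound by the POU factor OCT1 in H2B promoters, and the TATA box letters TATAAA.
HIST1H2BJ: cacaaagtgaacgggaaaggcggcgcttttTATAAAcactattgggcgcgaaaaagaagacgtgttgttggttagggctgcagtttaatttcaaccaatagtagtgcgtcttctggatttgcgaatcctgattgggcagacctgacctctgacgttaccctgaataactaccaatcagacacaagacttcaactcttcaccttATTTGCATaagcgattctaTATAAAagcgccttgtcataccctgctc
HIST1H4L: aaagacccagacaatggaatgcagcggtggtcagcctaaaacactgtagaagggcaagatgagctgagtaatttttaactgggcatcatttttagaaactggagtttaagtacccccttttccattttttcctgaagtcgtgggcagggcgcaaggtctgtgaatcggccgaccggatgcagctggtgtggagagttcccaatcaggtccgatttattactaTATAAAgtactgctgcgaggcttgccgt

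In HIST1H2BJ the octamer begins 47 bases and the nearer TATAAA 28 bases before the start, and in HIST1H4L TATAAA begins 28 bases before it. HIST1H2BJ stood at 23.2 RPKM with uCCNE1, 16.5 RPKM with pCCNE1 and 64.5 RPKM with Ctrl, a ratio to Ctrl of 0.359 (0.281 to 0.458) and a difference of -1.44. HIST1H4L stood at 5.52 RPKM with uCCNE1, 7.63 RPKM with pCCNE1 and 20.1 RPKM with Ctrl, a ratio of 0.275 (0.156 to 0.475) and a difference of -1.69. Both genes were picked for their fall, so that both fell is not a result. Of these promoters only that of the H2B gene carries the octamer, and a link to the fall was not tested.

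Over the 58 histone genes matched to a promoter window (250 bases before to 50 after the start), the octamer on either strand was found in 10 of 13 H2A, 9 of 17 H2B, 1 of 10 H3, 0 of 12 H4 and 0 of 6 linker histone H1 windows. It was in 1.80% of all 27305 windows of the table. The median difference was -0.98 over the 20 histone genes with the octamer and -1.09 over those without it. In 7 cases an H2A and an H2B gene face away from each other and their windows overlap, so they share letters. In 6 of these pairs the differences lay between -0.73 and -1.44 for both genes. The exception was HIST1H2AK, at 2.85 RPKM with uCCNE1 and 3.10 RPKM with Ctrl (-0.09), a value from few reads (ratio 0.919, 0.397 to 2.12), beside HIST1H2BN at 4.83 RPKM with uCCNE1 and 13.9 RPKM with Ctrl (-1.36).

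Transcript length and GC content were set beside the histone differences. Over 331 genes of 400 to 700 bases that are not histones the median was 0, and over the 23 histone genes of that length it was -1.03. Over genes other than histones, the median ran from 0.08 for transcripts under 40% GC to -0.17 for those of at least 60% GC. The 21 histone genes of at least 60% GC had a median of -0.95.

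Each culture can be set against its own control for the same genes. With uCCNE1 in 5iLA H7 the median of the 63 histone genes was -1.14, with 40 called lower, where the median of all genes was -0.34 and 4.94% of them were lower, and their sums were 1342 RPKM with uCCNE1 and 3025 RPKM with Ctrl. In primed H1 the median was 0.00 and 1 was called lower, but the sums there were only 71.8 RPKM with uCCNE1 and 61.6 RPKM with Ctrl. Low levels in the primed libraries limit what that culture can show. With pCCNE1 in t2iGo, against the same Ctrl library as uCCNE1, the median was -1.39 with 51 called lower, where 0.735% of all genes were higher and 2.72% lower. With pCCNE1 in 5iLA H7, 0 of the 56 genes of the shorter histone list were called lower and 1 was called higher, with a median of 0.13, where 0.875% of all genes were higher and 4.9% lower.

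**Figure D3:**
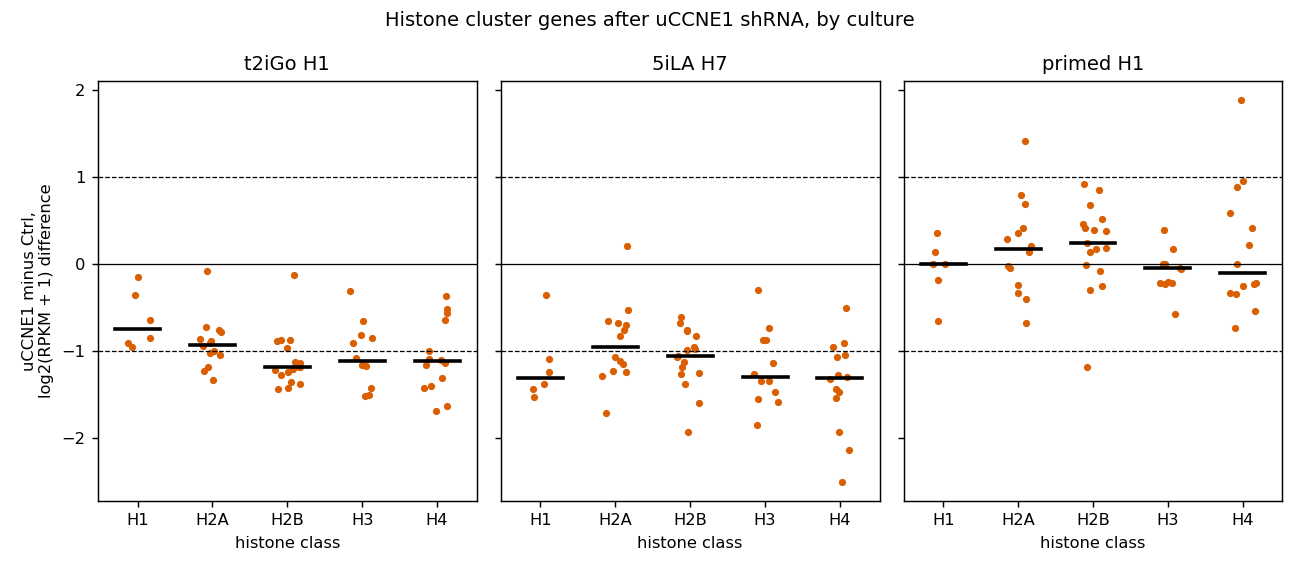
Difference of uCCNE1 minus Ctrl, on the log2(RPKM + 1) scale, for each histone gene by class in t2iGo H1, 5iLA H7 and primed H1; points are genes, bars are class medians and dashed lines mark a difference of 1. In t2iGo H1 all 63 points lie below 0, while in primed H1 they scatter around 0.

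A few genes of the NODAL pathway were lower, among them a ligand and antagonists. Of 23 listed genes 19 passed the filter, 4 were called lower (CER1, LEFTY1, EOMES and GDF3) and 0 were called higher. Of all genes, 0.636% were called lower and 0.38% higher. The median of the 19 was -0.53, with 13 below 0. With a pseudocount of 5 in place of 1, only 1 of these genes was called lower. NODAL itself stood at 10.6 RPKM with uCCNE1, 5.40 RPKM with pCCNE1 and 18.98 RPKM with Ctrl, at a ratio to Ctrl of 0.560 (0.468 to 0.670). GDF3, a related ligand, fell to 7.58 RPKM with uCCNE1 and 4.20 RPKM with pCCNE1, against 16.6 RPKM with Ctrl. The co-receptor gene TDGF1 did not reach the call either, at 21.8 RPKM with uCCNE1, 17.1 RPKM with pCCNE1 and 36.4 RPKM with Ctrl. Both hairpins are set against the same Ctrl library here and below.

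The antagonists differed among themselves. CER1, a secreted inhibitor of NODAL, BMP and WNT, fell to 6.03 RPKM with uCCNE1 and 3.25 RPKM with pCCNE1, against 30.0 RPKM with Ctrl. Its ratio with uCCNE1 was 0.201 (0.154 to 0.258), and on the log2(RPKM + 1) scale no gene outside the short RNAs had a larger fall. LEFTY1, a feedback inhibitor of NODAL, fell to 1.13 RPKM with uCCNE1 and 0.719 RPKM with pCCNE1, against 7.17 RPKM with Ctrl (ratio with uCCNE1 0.158, 0.092 to 0.260). LEFTY2, a near relative of LEFTY1, stood at 4.33 RPKM with uCCNE1, 8.79 RPKM with pCCNE1 and 3.48 RPKM with Ctrl, at a ratio of 1.25 (0.930 to 1.68). These neighbours are similar in sequence, so reads shared between them make both values uncertain.

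Among transcription factors of the pathway, EOMES, which specifies endoderm, fell to 1.87 RPKM with uCCNE1 and 0.969 RPKM with pCCNE1, against 5.66 RPKM with Ctrl. FOXH1, the SMAD partner, stood at 1.496 RPKM with uCCNE1, 1.66 RPKM with pCCNE1 and 3.43 RPKM with Ctrl. The receptors and SMADs lay close to control: SMAD2 stood at 11.02 RPKM with uCCNE1 and 10.5 RPKM with Ctrl, and the receptor gene ACVR2A at 7.02 RPKM with uCCNE1 and 6.01 RPKM with Ctrl. Against its own control in 5iLA H7, uCCNE1 gave differences of 0.16 for CER1 and -0.39 for LEFTY1, and in primed H1 of 0.60 and -0.34. CER1 was low in those controls, at 0.108 RPKM in 5iLA H7 and 2.46 RPKM in primed H1.

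Core pluripotency genes were lower in part. Of 20 listed genes 19 passed the filter, 2 were called lower (NANOG and GDF3) and 0 were called higher, beside 0.636% and 0.38% of all genes. GDF3 is also counted in the NODAL list. Of the 19, 15 had a difference below 0 (median -0.30). NANOG, a factor that holds cells in the pluripotent state, fell to 8.21 RPKM with uCCNE1 and 4.29 RPKM with pCCNE1, against 22.9 RPKM with Ctrl, at a ratio with uCCNE1 of 0.359 (0.321 to 0.3997). POU5F1, which encodes the POU factor OCT4, stood at 18.2 RPKM with uCCNE1, 13.6 RPKM with pCCNE1 and 34.6 RPKM with Ctrl, at a ratio of 0.525 (0.452 to 0.607). Other members did not share this: SOX2 stood at 44.1 RPKM with uCCNE1 and 42.0 RPKM with Ctrl, and LIN28A, an RNA-binding protein that blocks let-7, at 347 RPKM with uCCNE1 and 350.3 RPKM with Ctrl. PODXL, a surface sialomucin, was on the other side at 154 RPKM with uCCNE1 and 112 RPKM with Ctrl (ratio 1.37, 1.303 to 1.44). With uCCNE1, NANOG had a difference of -1.05 in 5iLA H7 and 0.43 in primed H1.

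The NANOG promoter is shown because NANOG had the largest fall in this list and is a known target of OCT4 and SOX2. It lies at chr12:7789152-7789401 (GRCh38.p14, plus strand, from RefSeq), and capitals mark TTTGCAT, the octamer without its first base.
NANOG: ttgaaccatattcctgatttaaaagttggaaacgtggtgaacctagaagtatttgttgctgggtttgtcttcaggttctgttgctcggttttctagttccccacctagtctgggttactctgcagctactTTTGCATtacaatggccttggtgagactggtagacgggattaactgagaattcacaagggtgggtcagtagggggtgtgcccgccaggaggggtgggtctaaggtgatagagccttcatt

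The letters begin 120 bases before the start. On either strand they occur in 4.51% of all promoter windows, a share that includes every window with the full octamer.

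Secreted proteins of liver and visceral endoderm were the largest listed group among the higher genes. The lists were chosen with earlier results of these data known, so that rank is not a test of the group. Of 25 listed genes 13 passed the filter, and 8 were called higher and 0 lower, beside 0.38% and 0.636% of all genes. The median over the 13 was 1.05, and with a pseudocount of 5 only 3 were called higher. The filter averages over 9 libraries of which 6 hold little of most of these RNAs, so genes with high t2iGo levels pass it more readily. The uCCNE1 and pCCNE1 t2iGo libraries are among the 9, so a rise there itself helps a gene to pass. This applies most to genes low with Ctrl, such as FGB at 0.987 RPKM and TTR at 1.85 RPKM. The count of 8 and the median of 1.05 therefore lean towards rises and do not measure the list as a whole. Of the 12 that did not pass, ALB stood at 0.371 RPKM with uCCNE1 and 0.158 RPKM with Ctrl, VTN at 1.86 RPKM with uCCNE1 and 1.05 RPKM with Ctrl, and APOH and APOC3 were listed at 0 in both libraries.

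SPINK1, a secreted trypsin inhibitor, rose to 21.9 RPKM with uCCNE1 and 14.8 RPKM with pCCNE1, against 3.08 RPKM with Ctrl, at a ratio with uCCNE1 of 7.11 (4.61 to 11.9). AFP, alpha-fetoprotein of fetal liver and yolk sac, rose to 18.7 RPKM with uCCNE1 and 21.6 RPKM with pCCNE1, against 4.71 RPKM with Ctrl (ratio 3.96, 3.31 to 4.78). APOA2, an apolipoprotein of high-density lipoprotein, rose to 105 RPKM with uCCNE1 and 97.6 RPKM with pCCNE1, against 40.6 RPKM with Ctrl (ratio 2.59, 2.22 to 3.01). The 3 fibrinogen chains rose together. FGA stood at 15.3 RPKM with uCCNE1 and 5.24 RPKM with Ctrl, FGB at 3.05 RPKM with uCCNE1 and 0.987 RPKM with Ctrl, and FGG at 5.76 RPKM with uCCNE1 and 2.26 RPKM with Ctrl. TTR, a carrier of thyroid hormone and retinol, stood at 6.10 RPKM with uCCNE1 and 1.85 RPKM with Ctrl, and APOB, the protein of low-density lipoprotein, at 4.50 RPKM with uCCNE1 and 1.54 RPKM with Ctrl.

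The other 5 that passed the filter did not reach the call. APOE, a lipoprotein component made by many tissues, stood at 17.2 RPKM with uCCNE1 and 23.9 RPKM with Ctrl, and APOC1 at 74.6 RPKM with uCCNE1 and 66.6 RPKM with Ctrl. Some factors that specify endoderm did not share the direction of these secreted proteins, though at low levels in both libraries. SOX17 stood at 0.795 RPKM with uCCNE1 and 1.33 RPKM with Ctrl, FOXA2 at 0.777 RPKM with uCCNE1 and 1.17 RPKM with Ctrl, and GATA6 at 1.18 RPKM with uCCNE1 and 2.05 RPKM with Ctrl. HNF4A, a later hepatocyte factor, stood at 0.728 RPKM with uCCNE1 and 0.396 RPKM with Ctrl, at a ratio of 1.84 (1.17 to 2.95). Of the 16 endoderm factors and receptors listed, 5 passed the filter and 1, EOMES, was called lower, where 0.636% of all genes were. EOMES is also counted in the NODAL list. The median of the endoderm factor list changed sign when differences were centred in bins of GC content.

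The AFP promoter is shown as that of the second largest rise among these proteins. It lies at chr4:73435971-73436220 (GRCh38.p14, plus strand, from RefSeq), and capitals mark TATAAA.
AFP: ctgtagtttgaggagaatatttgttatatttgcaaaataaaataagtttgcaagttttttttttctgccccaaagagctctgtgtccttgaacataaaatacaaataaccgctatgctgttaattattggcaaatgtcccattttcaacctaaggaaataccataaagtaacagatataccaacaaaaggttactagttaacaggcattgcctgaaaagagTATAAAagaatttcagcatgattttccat

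TATAAA begins 29 bases before the start. Searched on the gene strand, it was in 7.71% of all windows and in 2 of the 10 windows matched for the secreted proteins that passed the filter.

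In 5iLA H7 and primed H1 uCCNE1 gave 0 of the 13 secreted proteins a call higher, and 1, APOA2 in primed H1, a call lower (-1.01). Of all genes, 0.528% were higher and 4.94% lower in 5iLA H7, and 0.619% and 2.82% in primed H1. FGA, FGB, FGG, TTR and APOB stood at 0.1472 RPKM or less in uCCNE1 and Ctrl of both cultures. The lack of higher calls there therefore does not show that the rise is particular to t2iGo. AFP stood at 0.0883 RPKM with uCCNE1 and was listed at 0 with Ctrl in 5iLA H7, and stood at 1.13 RPKM with uCCNE1 and 0.365 RPKM with Ctrl in primed H1.

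**Figure D4:**
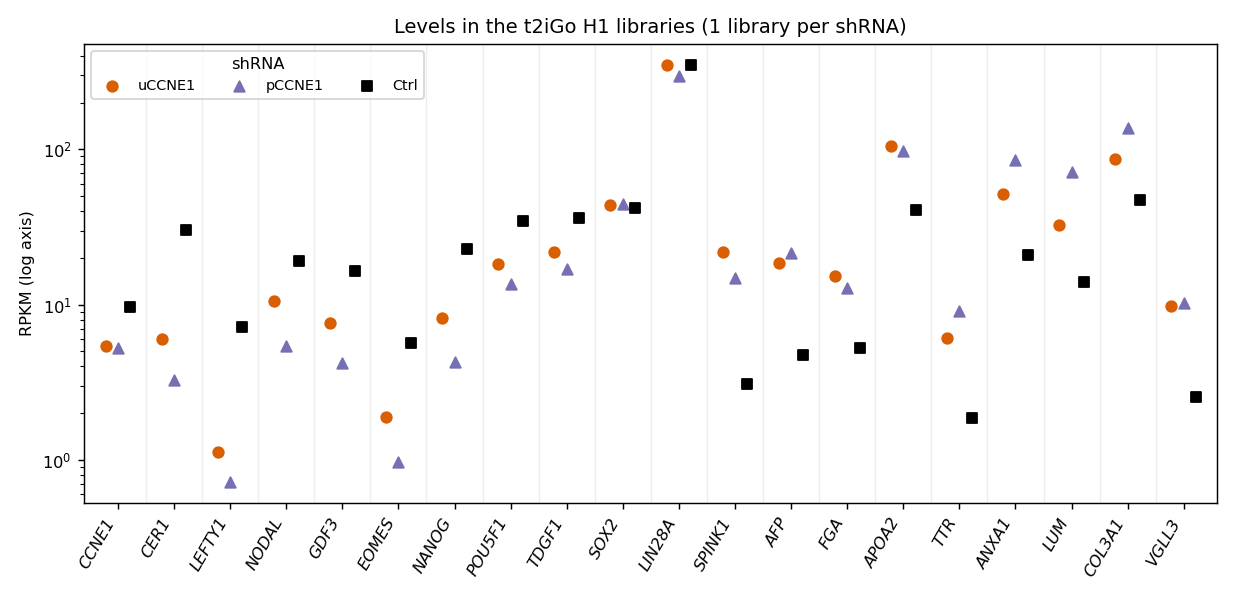
RPKM, on a log axis, of CCNE1 and of genes of the NODAL, pluripotency, secreted endoderm and matrix groups in the 3 t2iGo H1 libraries, 1 library per point. CER1 and NANOG lie lower with both CCNE1 hairpins than with Ctrl, SOX2 and LIN28A lie near Ctrl, and SPINK1, AFP and VGLL3 lie above it.

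The actin and fibroblast lists each held 1 gene called higher, where 0.38% of all genes were. Of 20 actin cytoskeleton and YAP or SRF target genes, 17 had a difference above 0 with a median of 0.47, and 1, ANXA1, was called higher. ANXA1, a phospholipid-binding protein, rose to 51.5 RPKM with uCCNE1 and 85.0 RPKM with pCCNE1, against 20.7 RPKM with Ctrl (ratio with uCCNE1 2.48, 2.20 to 2.80). TPM1, an actin-binding tropomyosin, stood at 106 RPKM with uCCNE1, 108 RPKM with pCCNE1 and 66.5 RPKM with Ctrl. In the fibroblast list 14 of 17 genes passed the filter and 1, LUM, was called higher, with a median of 0.14. LUM, a matrix proteoglycan, rose to 32.7 RPKM with uCCNE1 and 71.5 RPKM with pCCNE1, against 13.9 RPKM with Ctrl. COL3A1, a fibrillar collagen, stood at 86.9 RPKM with uCCNE1, 137 RPKM with pCCNE1 and 47.3 RPKM with Ctrl, while COL6A1 stood at 3.78 RPKM with uCCNE1, 2.43 RPKM with pCCNE1 and 7.16 RPKM with Ctrl. The collagens thus did not move as a block. LUM and COL3A1 make up most of the fibroblast marker sum given above, and the 6 other markers summed to 19.4 RPKM with uCCNE1, 23.7 RPKM with pCCNE1 and 17.4 RPKM with Ctrl.

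The remaining higher genes of at least 5 RPKM include several secreted or membrane proteins. VGLL3, a cofactor of TEAD transcription factors, rose to 9.72 RPKM with uCCNE1 and 10.3 RPKM with pCCNE1, against 2.55 RPKM with Ctrl (ratio with uCCNE1 3.82, 3.39 to 4.32). PCSK1, a prohormone protease, rose to 6.50 RPKM with uCCNE1 and 7.69 RPKM with pCCNE1, against 1.62 RPKM with Ctrl. DLK1, an imprinted membrane protein related to Notch ligands, rose to 6.41 RPKM with uCCNE1, beside 3.48 RPKM with pCCNE1 and 2.33 RPKM with Ctrl. NPNT, a matrix ligand of integrins, the protease gene PRSS23 and LRP2, an endocytic receptor of the visceral endoderm and kidney, had differences of 1.14, 1.03 and 1.002. HNRNPA1P10 had the largest difference of all genes that are not short RNAs, at 6.51 RPKM with uCCNE1, 13.0 RPKM with pCCNE1 and 0.0027 RPKM with Ctrl. It is a pseudogene copy of HNRNPA1 and its value is uncertain.

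Lower genes outside the histones and the NODAL pathway were of mixed function. The share of all genes called lower, 0.636%, belongs beside the counts given here by list. FOS, an immediate early gene of ERK signalling, fell to 1.26 RPKM with uCCNE1 and 1.71 RPKM with pCCNE1, against 6.13 RPKM with Ctrl (ratio with uCCNE1 0.206, 0.129 to 0.307), and was the 1 gene called among 22 of the FGF and ERK list (median -0.15). IFITM1, a membrane protein that limits virus entry, fell to 94.4 RPKM with uCCNE1 and 80.1 RPKM with pCCNE1, against 215 RPKM with Ctrl (ratio with uCCNE1 0.440, 0.406 to 0.477). IFITM2, a related gene, fell too, to 11.01 RPKM with uCCNE1, against 23.4 RPKM with Ctrl. They were the 2 called of 18 interferon-induced genes, whose median was -0.04, and IFI6 lay on the other side at 10.2 RPKM with uCCNE1 and 4.83 RPKM with Ctrl.

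PDK1, a kinase that restrains pyruvate dehydrogenase, fell to 9.11 RPKM with uCCNE1 and 6.27 RPKM with pCCNE1, against 20.1 RPKM with Ctrl. It was the 1 called of 26 genes of glycolysis and hypoxia, where 0.636% of all genes were called lower. SLC2A1, the glucose transporter of the same list, stood at 29.6 RPKM with uCCNE1 and 17.6 RPKM with Ctrl. CDA, cytidine deaminase, fell to 0.622 RPKM with uCCNE1, against 5.07 RPKM with Ctrl, from few reads (ratio 0.123, 0.0448 to 0.289). NTS, the neuropeptide neurotensin, fell to 40.6 RPKM with uCCNE1 and 39.3 RPKM with pCCNE1, against 93.1 RPKM with Ctrl. COX17, a copper chaperone of cytochrome oxidase, fell to 1.65 RPKM with uCCNE1 and 2.31 RPKM with pCCNE1, against 6.90 RPKM with Ctrl.

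Other lists had few or no calls, as lists of their size would at the share of all genes (0.38% higher and 0.636% lower). None was called among 19 WNT genes (median -0.11), 14 BMP and ID genes (-0.32), 26 genes of the ATF4 response (-0.17), 21 p53 targets (0.13), 18 ER chaperones (0.06), 17 heat shock genes (-0.08), 20 cholesterol synthesis genes (-0.19), 26 MYC and ribosome biogenesis genes (-0.03), 19 cadherin and EMT genes (0.03), 10 writers and erasers of DNA methylation (0.04), 7 mesoderm genes (-0.18) or 6 neural genes (0.29). Among 39 Mediator and enhancer cofactor genes, of interest because the title of the series speaks of enhancers, none was called and the median was -0.01. The central quartiles of all genes ran from -0.16 to 0.14. The BMP, ATF4, cholesterol, mesoderm and neural medians lay outside that range, so the lack of calls does not show these lists unchanged. Of the 14 BMP and ID genes, 12 lay below 0. ID1, a BMP target that blocks basic helix-loop-helix factors, came nearest to the call among them, at 6.43 RPKM with uCCNE1 and 13.0 RPKM with Ctrl (ratio 0.493, 0.364 to 0.663). CGA, a hormone subunit of trophoblast, was the 1 called of 8 trophoblast and simple epithelium genes, at 1.07 RPKM with uCCNE1 and listed at 0 with Ctrl.

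**Figure D5:**
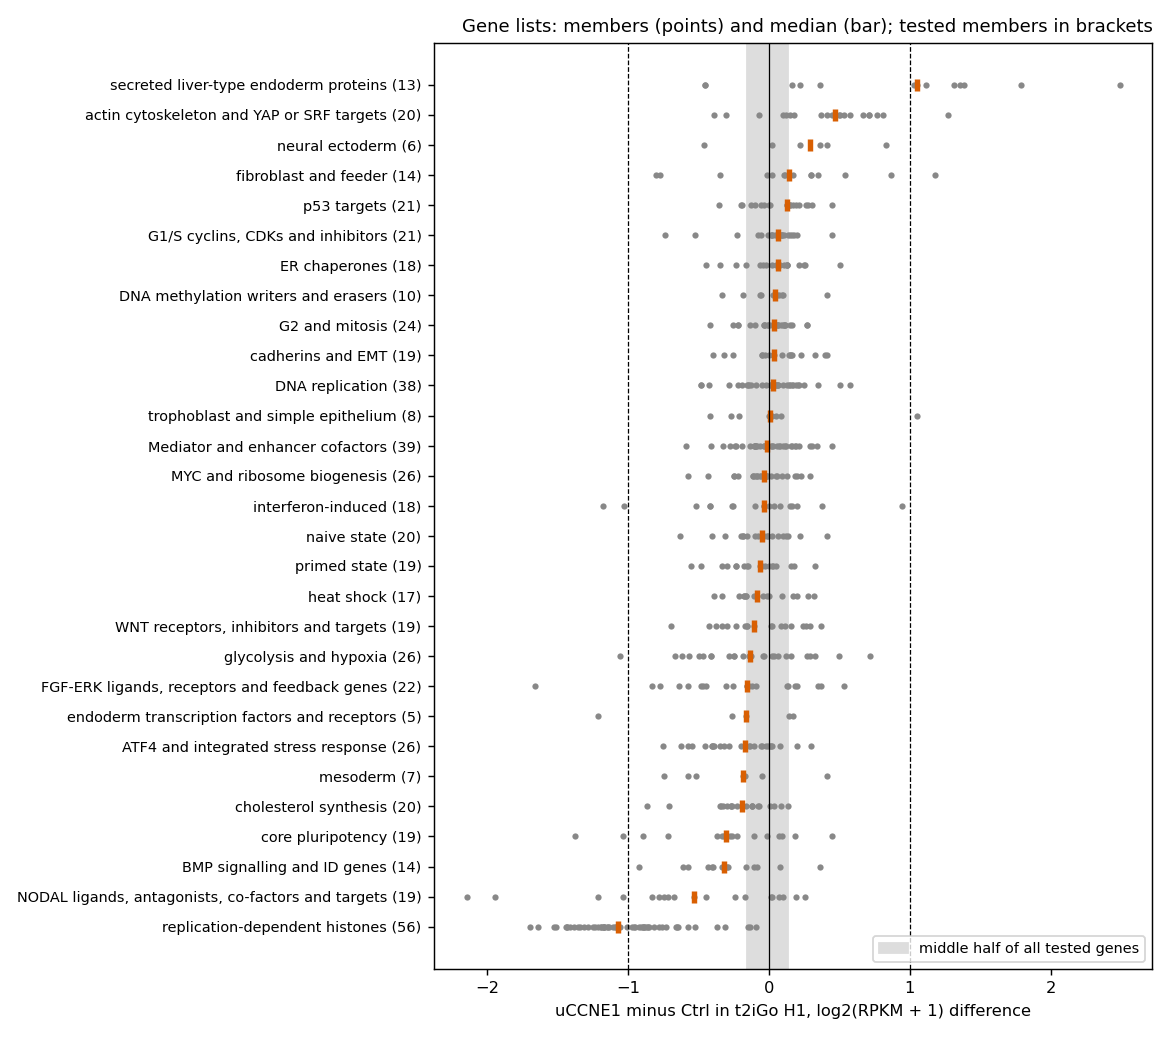
Difference of uCCNE1 minus Ctrl in t2iGo H1, on the log2(RPKM + 1) scale, for the members of each of 29 gene lists that passed the filter (points) with the list median (bar); dashed lines mark a difference of 1. The histone list, here 56 of the 63 genes, has a median of -1.07 and the secreted endoderm list one of 1.05, while most other medians lie in the grey band of the central quartiles of all genes. For the secreted endoderm list, the filter itself favours genes that rose with a CCNE1 hairpin in t2iGo.

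Short RNAs, among them small nucleolar and Cajal body RNAs, gave the largest single differences and are uncertain, since they are short and many lie inside introns of other genes. MIR1248, SNAR-G1 and SNORA6 were listed at 0 with uCCNE1 and pCCNE1 and stood at 261, 39.8 and 28.02 RPKM with Ctrl. SNORA77, SNORA18 and SNORA19 stood at 89.0, 83.5 and 41.4 RPKM with uCCNE1 and were listed at 0 with pCCNE1 and Ctrl. With all 126 short RNAs left out, 25 of 11990 genes (0.209%) were higher and 63 (0.525%) were lower.

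A direct comparison of the CCNE1 hairpins within t2iGo needs no control library. Of the 12116 genes 112 (0.924%) were higher and 26 (0.215%) lower with uCCNE1 than with pCCNE1, and the median gene lay at 0.11. No secreted endoderm protein of the 13 differed by 1 or more, with a median of 0.16. LUM was lower with uCCNE1 by 1.10, at 32.7 RPKM with uCCNE1 and 71.5 RPKM with pCCNE1, as was ADAM9, a membrane metalloprotease named after its value was seen, at 11.52 RPKM with uCCNE1 and 31.5 RPKM with pCCNE1. NANOG and NODAL were at 0.80 and 0.86 in that comparison, short of the call. Of 38 DNA replication genes 36 had a value above 0, with a median of 0.23.

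The calls of uCCNE1 in t2iGo were also set beside those of uCCNE1 in the other cultures, which have control libraries of their own. Against Ctrl in 5iLA H7, 64 genes (0.528%) were higher and 598 (4.94%) lower, around a median of -0.34, and in primed H1 75 (0.619%) were higher and 342 (2.82%) lower, around a median of -0.07. Of the 77 genes lower in t2iGo, 37 were also lower in 5iLA H7, which is 48.1% of the 77 and 6.19% of the 598. Among the 37, 20 were histone genes and 9 were short RNAs. In primed H1 the shared genes were 8, or 10.4% of the 77 and 2.34% of the 342, and 3 of the 8 were short RNAs. Of the 46 higher genes, 4 were shared with 5iLA H7 (8.70% of the 46 and 6.25% of the 64) and 6 with primed H1 (13.0% and 8% of the lists), 5 of these being short RNAs. Besides the uncertain HNRNPA1P10, ANXA1, PCSK1 and PRSS23 were higher by at least 1 in t2iGo and in 5iLA H7, with differences in 5iLA H7 of 2.39, 1.39 and 1.11.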

How the data were processed

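The deposited values were RPKM, given by the authors once per gene. TopHat2 2.3.0, Cufflinks 1.2.1 and build hg19 are named per the submitters' processing notes, with no role, and RNeasy Mini and TruSeq kits per the labels' protocols. Neither strand use nor the handling of multiply mapped reads is stated there. The table of untreated H7 cells was not used.

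Values of 1 library per group were compared as log2(RPKM + 1), without a test. Depth was estimated from the steps between low RPKM values and transcript lengths of GENCODE 29, matched for 21905 genes by RefSeq identifier and 770 by symbol, with 612 unmatched, and the estimator was tested on simulated data. Exact 95% intervals of a ratio come from estimated reads. Promoters came from RefSeq (GRCh38.p14), and no coordinate was carried between builds.

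The genes named were CCNE1, CCNE2, the 25 largest rises and falls of at least 5 RPKM, called members of the 29 lists, the 2 most abundant members of each list, and 3 short RNAs per direction. Other list members were named for their role, after their values were seen. The members and lists were chosen with earlier results of these data known. Alternatives changed the pseudocount, the filter, the scaling, the counting error and GC content. Python 3.11.15, pandas 2.3.3, scipy 1.17.1 and matplotlib 3.10.9 were used.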

Additional observations from a re-analysis of the deposited data

Results flagged for a closer look

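Among genes called in t2iGo H1, 11 of the higher and 3 of the lower ones differed by at least 1 the opposite way in 5iLA H7, and 8 and 5 did so in primed H1. Of all genes, 4.94% were lower and 0.528% higher in 5iLA H7, and 2.82% and 0.619% in primed H1. Apart from TGIF2-C20ORF24, at 2.02 RPKM with uCCNE1 in t2iGo, the 11 were all short RNAs. Given here are the 8 that are neither short RNAs nor read-through loci and reach at least 5 RPKM in uCCNE1 or Ctrl t2iGo. With 1 library on each side, the difference between cultures was not tested.

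In primed H1, 4 of these 8 genes, higher in t2iGo, were lower. APOA2 had 1.35 in t2iGo and -1.01 in primed H1, DLK1 had 1.16 and -3.36, LRP2 had 1.002 and -1.22, and PRSS23 had 1.03 and -1.02. DLK1 stood at 2.45 RPKM with uCCNE1 and 34.4 RPKM with Ctrl in primed H1. Further, 3 of the 8, lower in t2iGo, were higher in primed H1. GDF3 had -1.03 in t2iGo and 1.13 in primed H1, HIST1H4H had -1.17 and 1.88, and LOC729739 had -1.13 and 1.065. HIST1H4H stood at 4.57 RPKM with uCCNE1 and 0.515 RPKM with Ctrl in primed H1, where histone RNAs were scarce.

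In 5iLA H7, HAPLN1, a link protein of the matrix, had 1.99 beside -1.10 in t2iGo, and LOC729739 had 1.14 beside -1.13.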

How the results depend on the processing

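Results were recomputed under 9 alternatives, 1 of them (differences centred in 6 bins of transcript GC content) chosen after seeing the data. The counts of called genes moved with the pseudocount, by construction, since it sets how far low genes can differ. With a pseudocount of 0.1, 146 genes were higher and 260 lower, and with a pseudocount of 5, 26 were higher and 40 lower. With the pseudocount of 5 the NODAL list held 1 gene called lower and the secreted endoderm list 3 called higher. With short RNAs removed and the libraries rescaled, 26 genes were higher, by construction, since 21 of the 46 were short RNAs. The median of endoderm transcription factors and receptors was 0.00254 when centred in GC bins, against -0.17, and the cause was not tested. Other counts stayed within 1.5 times of their value, and CCNE1 ran from -0.83 to -0.50. Of 52 named genes past a difference of 1, a pseudocount of 5 took 23 below it, and GC bins took 4. No paired analysis was possible because each group has 1 library and the labels give no replicate numbers, and for the same reason no library could be left out. Depth limits genes of low level most: a single read on a 2 kb transcript was worth 0.0516 RPKM with uCCNE1.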
